A study of Caenorhabditis elegans with 12 samples.

Results

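The 33 mRNAs described here come from genes known for their roles in the oocyte, the eggshell and the maternal control of the early embryo of Caenorhabditis elegans. Several of them are known from ribonucleoprotein particles that LIN41 and the OMA proteins form in adult oocytes. They were chosen by gene symbol, and all 33 were found among the 20182 genes of the count table. An mRNA was taken as measured where it had at least 10 counts in 3 or more of the 12 libraries, which held for 28 of the 33 and for 12942 of all genes. The other 5 were nos-2, meg-1, perm-2, perm-4 and cdc-25.3. The measured mRNA closest to the limit was mex-6, with 30, 11 and 10 counts in its 3 highest libraries, and the unmeasured mRNA closest to it was cdc-25.3, with 17 and 13 counts in its highest 2.

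The libraries came from anti-FLAG RNA co-immunoprecipitation (IP) coupled to sequencing (RIP-seq), which addressed which mRNAs LIN41 binds as let-7 begins to silence it. The LIN41 IP and LIN41 input libraries were made from lin-41(n2914); him-5(e1490) worms that carried FLAG- and GFP-tagged lin-41 under the lin-41 promoter. The control libraries (SART-3 IP, SART-3 input) came from him-5(e1490) worms that carried tagged sart-3, which encodes a nuclear protein of pre-mRNA splicing, under the dpy-30 promoter, with lin-41 itself intact. Each of the 4 groups had 3 biological replicates, and all groups were whole worms of mixed L3 and L4 larval stages, grown for about 30 h at 25 °C from embryos taken out of gravid adults. The him-5 mutation, which all groups shared, raises the share of males, and males make no oocytes.

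In C. elegans, hermaphrodites make sperm as larvae and switch to oocytes near the molt to adulthood. Growing oocytes load mRNAs that are kept silent by RNA-binding proteins, and these mRNAs are translated later, in oocyte maturation, in eggshell formation or in the embryo before its own genome is switched on. LIN41 is known to act both in the larval soma, where it is a target of let-7, and in the adult germ line, where it holds oocytes back from premature maturation and is found with many of these mRNAs.

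The libraries differed in depth and by replicate. Total counts ranged from 291466 to 2024430, and 3 counts corresponded to between 8.23 and 13.7 normalised CPM (counts relative to library size, with TMM factors) in LIN41 IP, between 1.3 and 3.35 in LIN41 input, between 5.05 and 8.45 in SART-3 IP and between 1.87 and 2.22 in SART-3 input. Such floors take in counting error alone. The reads carried no molecular identifiers, and a single read was kept per 5′ position, so a count need not equal a number of molecules. The labels place the IP libraries in lane 4 and the inputs in lane 3, so IP and lane cannot be told apart. Replicate 1 stood apart from the others: among the 6 inputs, 15.7% of 12802 genes were higher and 13.8% lower in replicate 1 than in the other replicates. Summed over 17 sperm genes, levels were 423, 527 and 854 CPM in LIN41 input and 203, 324 and 602 CPM in SART-3 input for replicates 1, 2 and 3, so they were lowest in replicate 1 and highest in replicate 3 in both strains. A sum over 20 genes of the mitotic and meiotic germ line ranged only from 1404 to 1707 CPM over the 12 libraries. The 6 yolk protein genes, which the adult hermaphrodite intestine expresses at very high levels, summed to 14.2 to 165 CPM.

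The 33 mRNAs together made up a small part of every group. They summed to 997 to 1253 CPM in LIN41 IP, 1199 to 1327 CPM in LIN41 input, 893 to 1415 CPM in SART-3 IP and 1072 to 1255 CPM in SART-3 input. In a whole-worm library, fewer cells of a type and less RNA per cell cannot be told apart. The median count of a tested member in a library was 8.5 in LIN41 IP, 52.5 in LIN41 input, 13 in SART-3 IP and 47 in SART-3 input. In LIN41 IP, 18 of the 24 members tested across all libraries had under 10 counts in at least 1 library. In SART-3 IP 16 of 24 did, and none did in the inputs. The absence in the inputs depends in part on the filter on low counts that the 24 had passed. The measured mRNAs that it left out, puf-5, mex-1, mex-6 and meg-3, had under 10 counts in LIN41 inputs 2 and 3.

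**Figure D1:**
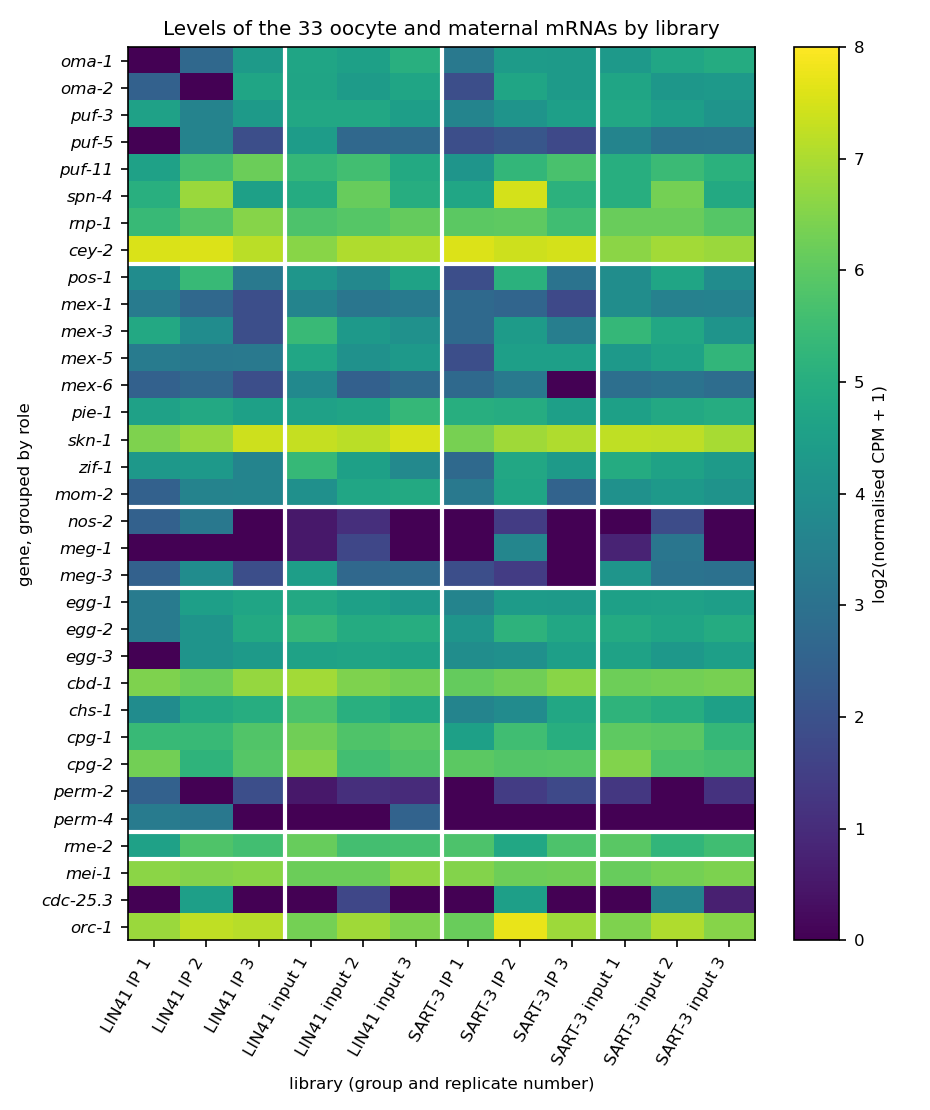
Each row is an mRNA, grouped by role, and each column is a library, with colour giving log2(normalised CPM + 1). cey-2, skn-1, orc-1, mei-1 and cbd-1 are bright in all 12 libraries, nos-2, meg-1, perm-2, perm-4 and cdc-25.3 are dark in most of them, and spn-4 is brightest in the 4 libraries of replicate 2.

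Levels in the inputs were compared per kb of gene length. cey-2, a germline Y-box protein gene, had the highest level, 149 ± 27.6 CPM per kb in LIN41 input and 135 ± 13.5 CPM per kb in SART-3 input (SD, n = 3 each). It was followed by skn-1, a transcription factor of embryonic endoderm and mesoderm fate that also acts in the larval intestine, with 76.4 ± 10.1 CPM per kb in LIN41 input and 66.7 ± 6.76 CPM per kb in SART-3 input, and by rnp-1, which encodes a protein with an RNA recognition motif, with 65.4 ± 8.38 CPM per kb in LIN41 input and 72.6 ± 7.65 CPM per kb in SART-3 input. These 2 genes did not differ from each other beyond their spread, whereas cey-2 lay above both in every input. Among the measured mRNAs, meg-3, whose protein organises P granules, had the lowest mean, 4.19 ± 3.45 CPM per kb in LIN41 input and 4.00 ± 2.23 CPM per kb in SART-3 input. mex-6 and puf-5, a Pumilio family gene of oocyte formation, were next and within its spread, and puf-5 had 6.35 ± 5.08 CPM per kb in LIN41 input and 5.16 ± 1.31 CPM per kb in SART-3 input.

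The measured genes of meiosis and the cell cycle, mei-1 and orc-1, were high as well. The unmeasured gene of that role, cdc-25.3, averaged only 0.782 CPM per kb in LIN41 input and 4.11 CPM per kb in SART-3 input. mei-1, the catalytic subunit of the katanin that severs microtubules of the meiotic spindle, averaged 57.7 ± 11.5 CPM per kb in LIN41 input and 54.8 ± 5.33 CPM per kb in SART-3 input. orc-1, a subunit of the origin recognition complex, averaged 48.9 ± 10.4 CPM per kb in LIN41 input and 53.9 ± 12.3 CPM per kb in SART-3 input, which overlaps mei-1. Among the eggshell genes, cpg-2 and cpg-1, which encode chondroitin proteoglycans of the eggshell, were higher per kb than chs-1, the chitin synthase gene, which averaged 9.26 ± 3.38 CPM per kb in LIN41 input and 7.50 ± 1.75 CPM per kb in SART-3 input. The redundant oocyte maturation genes oma-1 and oma-2, which encode CCCH zinc finger proteins, overlapped in level: oma-1 averaged 21.6 ± 4.01 CPM per kb in LIN41 input and 20.1 ± 4.15 CPM per kb in SART-3 input, and oma-2 averaged 19.7 ± 2.34 CPM per kb in LIN41 input and 17.3 ± 3.43 CPM per kb in SART-3 input.

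The 5 unmeasured mRNAs included those of the germ cell determinant nos-2, a Nanos family gene, of the P granule gene meg-1 and of perm-2 and perm-4, which are needed for the permeability barrier of the egg. nos-2 had at most 4 counts and perm-2 at most 2 counts in any library. perm-4 was at 0 in all 6 SART-3 libraries and had 2, 3 and 0 counts in LIN41 IP and 0, 0 and 5 counts in LIN41 input. In exon annotation, 13 of the 33 genes overlap a neighbour by 5 to 154 bases, the longest being nos-2 with him-14 and cdc-25.3 with trxr-2 (109 bases). Whether strand was used in counting is not given in the sources used here, so the low counts of these 2 genes could include reads of the neighbour.

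**Figure D2:**
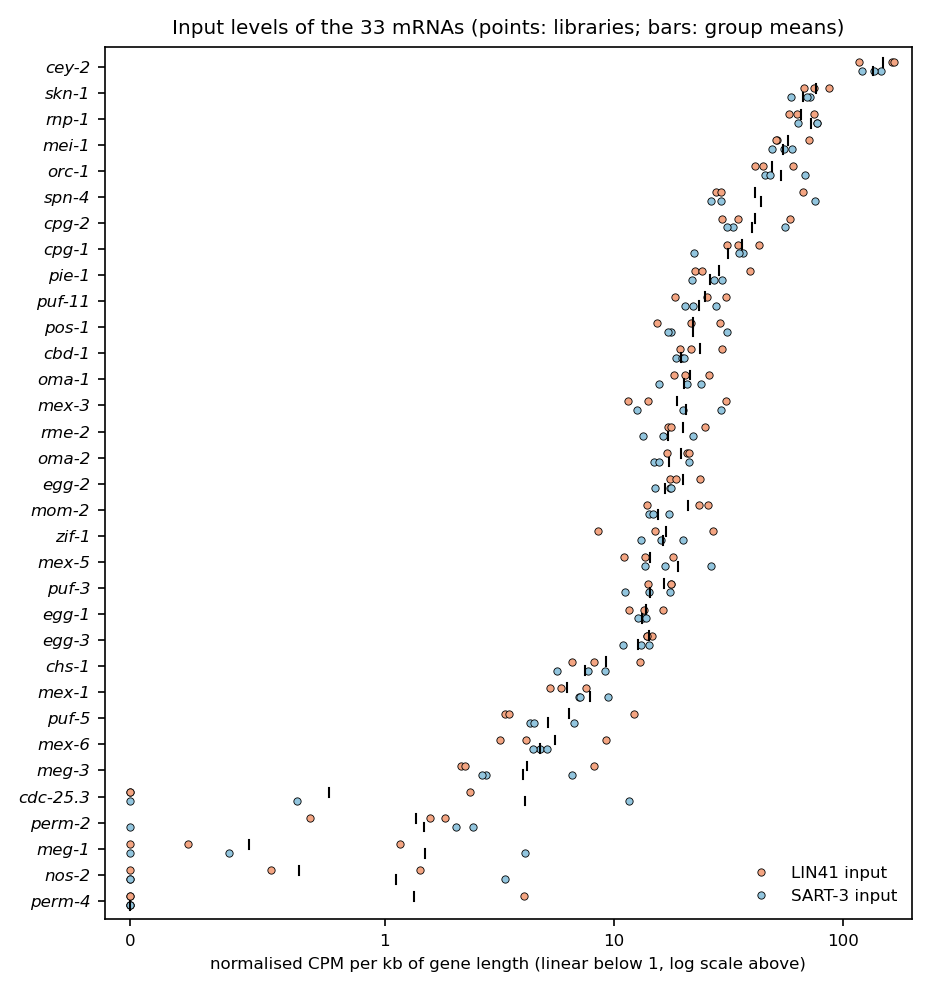
Points are the 3 libraries of LIN41 input and of SART-3 input, bars are group means, and the x axis is normalised CPM per kb of gene length. cey-2 stands above the other mRNAs at 149 and 135 CPM per kb on average, and the 2 strains overlap for nearly all mRNAs.

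LIN41-specific enrichment, the log2 IP-to-input ratio of LIN41 minus that of SART-3, asked whether LIN41 bound these mRNAs in larvae beyond what the control IP recovered. None of the 24 members tested passed in either direction by edgeR's quasi-likelihood test with Benjamini-Hochberg adjustment over 12036 genes (all 24 with an adjusted p of 1.0), and 0 had an unadjusted p under 0.05. The likelihood ratio test and DESeq2 also called 0. The background was low: 0.0415% of all genes were called higher and 0% lower, and 113 genes with positive and 121 with negative values had an unadjusted p under 0.05. Of the 24 members, 9 had positive and 15 negative values, with a median of −0.16, against −0.03 over all genes tested.

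The members with the lowest values were RNA-binding protein genes of oocyte maturation and a Wnt gene. oma-1 (WBGene00003864) had 0, 5.49 and 19.4 CPM in LIN41 IP, against 25.0, 22.3 and 31.9 CPM in LIN41 input, and 8.45, 20.2 and 19.4 CPM in SART-3 IP, against 19.2, 25.5 and 29.3 CPM in SART-3 input. The LIN41 IP of oma-1 lay below the LIN41 input in every replicate, but with only 0, 2 and 7 counts. Its LIN41-specific enrichment was −1.01 (SE 0.668; 95% interval −2.40 to 0.39), negative in all 3 replicates. mom-2, which encodes a Wnt ligand of the early embryo, had −0.98 (SE 0.686), and oma-2 had −0.95 (SE 0.848).

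oma-2 showed how few reads these ratios rest on. It had 4.57, 0 and 25.0 CPM in LIN41 IP, against 24.6, 20.1 and 25.1 CPM in LIN41 input, and 2.82, 25.2 and 19.4 CPM in SART-3 IP, against 25.1, 17.6 and 18.7 CPM in SART-3 input. The counts behind the LIN41 IP values were 1, 0 and 9. Its enrichment was 0.46, −3.83 and −0.05 in replicates 1, 2 and 3, so its fitted value was set by replicate 2, where the LIN41 IP count was 0.

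At the other end was puf-11, another Pumilio family gene. It had 22.9, 49.4 and 72.2 CPM in LIN41 IP, against 38.9, 46.9 and 28.0 CPM in LIN41 input, and 16.9, 38.7 and 51 CPM in SART-3 IP, against 31.0, 42.5 and 33.6 CPM in SART-3 input. In both strains the IP was below the input in replicate 1 and above it in replicate 3, so the 2 groups overlapped. Its LIN41-specific enrichment of 0.35 (SE 0.463) was the highest of the 24, and it was −0.10 without LIN41 IP replicate 3. rnp-1 followed with 0.34 (SE 0.350) and pos-1, a CCCH zinc finger gene of early blastomere fate, with 0.27 (SE 0.739).

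For the 24 members tested, 95% intervals were set around the values. They rest on the standard errors of the fit and are approximate at counts as low as those of oma-1 and oma-2. All 24 of the 95% intervals spanned 0, the upper end was under 1 for 16 members and under 2 for all 24, and the highest upper end was 1.82 (pos-1). For scale, mab-3, a Doublesex-related gene of male tail development chosen after its value was seen, had 242, 318 and 331 CPM in LIN41 IP, against 50.5, 50.2 and 79.1 CPM in LIN41 input, and 39.4, 87.5 and 65.5 CPM in SART-3 IP, against 50.3, 71.2 and 85.4 CPM in SART-3 input. Its LIN41-specific enrichment was 2.35 (SE 0.287; adjusted p = 0.00139, edgeR's quasi-likelihood test with Benjamini-Hochberg adjustment), which lies above the upper end of the interval of every member tested. The narrowest intervals belonged to well counted members such as mei-1 (−0.40 to 0.74), cey-2 (−0.76 to 0.38) and cbd-1 (−0.76 to 0.51), a chitin-binding protein gene of the outermost eggshell layer. No interval from this fit exists for the mRNAs that the filter on low counts left out of it. In fits with another filter or with libraries left out, meg-3 ranged from 0.95 to 2.96, which takes in the value of mab-3. The parts of that value differ between the 2 genes. meg-3 ranged from −1.74 to 0.28 in LIN41 IP against LIN41 input and from −3.06 to −2.28 in SART-3 IP against SART-3 input. mab-3 had 2.285 and −0.06 in these comparisons. In such fits mex-1 ranged from 0.40 to 0.90 and puf-5 from −1.16 to 1.33, and mex-6 was at −0.47. Of the unmeasured mRNAs, cdc-25.3 ranged from −0.39 to 4.62, which also takes in the value of mab-3. With no filter on low counts, meg-1 was at −3.69, perm-2 at 0.70, perm-4 at 1.79 and nos-2 at 2.97. None of these was called, and their counts were very low.

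By role, the 7 tested RNA-binding protein genes had a median enrichment of −0.19, the 7 fate and polarity genes −0.27, the 7 eggshell and egg activation genes −0.13 and the 2 meiosis and cell cycle genes 0.16. The yolk receptor gene rme-2, whose protein takes up yolk into oocytes, had −0.15 (SE 0.416), with values of −1.32, 0.62 and −0.28 in replicates 1, 2 and 3. puf-5, mex-1, mex-6 and meg-3 were measured but fell below edgeR's filter on low counts over the 4 groups, so they have no value in that fit. With the filter set to at least 10 counts in 3 libraries, all 4 had a value, each with an adjusted p of 1.0 in edgeR. The largest of these values was that of meg-3, 2.23 (SE 1.12; adjusted p = 1.0, edgeR), which rests on 1, 5 and 1 counts in LIN41 IP, against 5 to 49 counts in LIN41 input, and on 1, 1 and 0 counts in SART-3 IP, against 11 to 23 counts in SART-3 input. Among 45 other genes of the same pathways, such as gld-1, par-2 and mbk-2, 41 were tested and 0 were called by the same test, 1 at an unadjusted p under 0.05, with a median of −0.02.

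**Figure D3:**
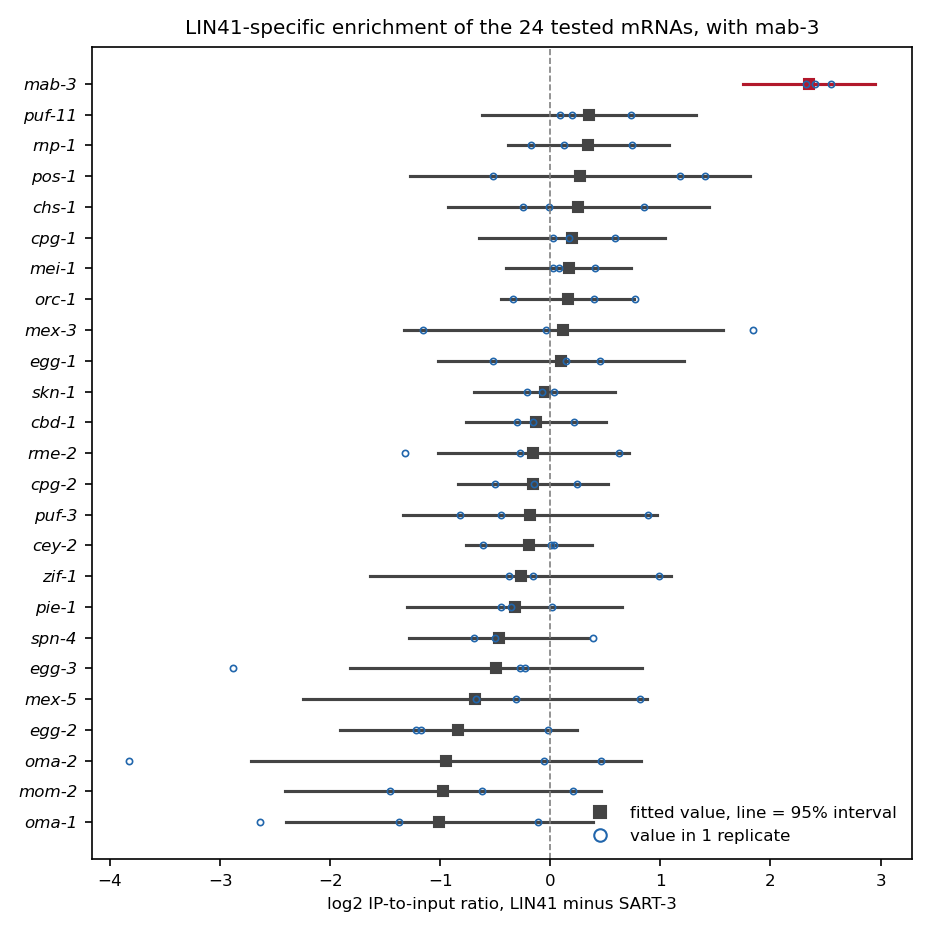
Squares are fitted log2 values of LIN41-specific enrichment, lines their 95% intervals and circles the values of single replicates, with mab-3 on top for scale. All 24 member intervals cross 0 and end below 2, whereas the interval of mab-3 runs from 1.75 to 2.95.

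The comparison of LIN41 IP with LIN41 input asked which mRNAs the anti-FLAG beads held relative to the lysate. Of the 24 members, 1 was lower and none higher, by edgeR's quasi-likelihood test with Benjamini-Hochberg adjustment, where 5.33% of all genes were lower and 8.87% higher. In the same edgeR fit, 6 members had an unadjusted p under 0.05, and 7 values were positive and 17 negative, with a median of −0.35, against −0.07 over all genes. oma-1 was the member that passed, with a log2 value of −1.57 (SE 0.504; adjusted p = 0.0431) and its LIN41 IP below its LIN41 input in 3 of 3 replicates. This call was not stable. It was lost with DESeq2 (adjusted p = 0.0603) and without LIN41 IP replicate 1 (0.137), LIN41 IP replicate 2 (0.184), LIN41 input replicate 1 (0.0944) or LIN41 input replicate 3 (0.0612), all from Benjamini-Hochberg adjustment. It was also lost on leaving out SART-3 IP replicate 3 (0.0586), SART-3 input replicate 1 (0.0549), 2 (0.0605) or 3 (0.0538), all libraries of replicate 1 (0.124), 2 (0.171) or 3 (0.0819), or the replicate block (0.192). Without all libraries of replicate 1, where its log2 value was −1.12, cdc-25.3 and orc-1 were called higher. cdc-25.3, which the filter left out of the fit reported, was called higher in 4 of the 15 alternatives that gave it a value. The share of all genes called in those alternatives is not given here, so these calls are not read as particular to the members. With total counts in place of TMM factors, 693 genes were higher and 2241 lower in LIN41 IP, against 1067 and 641 with TMM, and the median of all genes was −0.41. oma-1, mom-2 and skn-1 were then called lower.

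The next lowest values belonged to genes of the embryo. mex-5, a CCCH zinc finger gene of zygote polarity, had 9.14, 8.23 and 8.34 CPM in LIN41 IP, against 25.5, 15.6 and 19.3 CPM in LIN41 input. The groups did not overlap, but the LIN41 IP values stand for 2, 3 and 3 counts, and the log2 value of −1.35 (SE 0.580) did not pass (adjusted p = 0.124, edgeR's quasi-likelihood test with Benjamini-Hochberg adjustment). mom-2 had 4.57, 11 and 11.1 CPM in LIN41 IP, against 15.1, 25.7 and 28.0 CPM in LIN41 input, also without overlap, and −1.3 (SE 0.513; adjusted p = 0.0957, same test).

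Among the positive values, cey-2 (WBGene00000473) was highest. It had 188, 189 and 142 CPM in LIN41 IP, against 94.6, 132 and 134 CPM in LIN41 input, and 192, 167 and 179.5 CPM in SART-3 IP, against 96.8, 118 and 110.3 CPM in SART-3 input. The IP lay above the input in all 6 pairs, and the groups of each strain did not overlap. Only a single read per 5′ position was counted, and cey-2 is 804 bases long. It had 219 counts in LIN41 input 1, the deepest library. The part of this in its IP-to-input ratios was not tested. The log2 value was 0.53 (SE 0.199; adjusted p = 0.0819, edgeR's quasi-likelihood test with Benjamini-Hochberg adjustment) for LIN41 and 0.72 (SE 0.188; adjusted p = 0.0137, same test) for SART-3.

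In SART-3 IP against SART-3 input, cey-2 was the member that passed, 1 of 24 higher and none lower, where 10.5% of all genes were higher and 7.79% lower. In edgeR, 4 members had an unadjusted p under 0.05, 7 values were positive and 17 negative, and the median was −0.22, against −0.03 over all genes. The call of cey-2 held with DESeq2 and without all libraries of replicate 1 (log2 value 0.58; adjusted p = 3.5e-04, edgeR). It was lost without SART-3 IP replicate 1 (adjusted p = 0.104) or 3 (0.0749), without SART-3 input replicate 1 (0.0537), 2 (0.0549) or 3 (0.0683), without all libraries of replicate 3 (0.211), without the replicate block (0.0509) and with total counts in place of TMM factors (0.0628), by edgeR's quasi-likelihood test with Benjamini-Hochberg adjustment. That last scaling gave 776 genes higher and 2256 lower, against 1262 and 938 with TMM, a median of −0.32 over all genes, and cpg-1, mex-3 and skn-1 lower. Without all libraries of replicate 1, orc-1 and spn-4 were called higher beside cey-2. The share of all genes called in that alternative is not given here either. meg-3, which the filter left out of this fit, had 2.82, 1.68 and 0 CPM in SART-3 IP, against 17, 7.18 and 6.85 CPM in SART-3 input. With the filter set to at least 10 counts in 3 libraries it was lower, with a log2 value of −2.62 (SE 0.813; adjusted p = 0.0323, edgeR's quasi-likelihood test with Benjamini-Hochberg adjustment). It was called lower in 7 of the 14 alternatives that gave it a value, which ranged from −3.06 to −2.28. The lowest value was that of mex-3, a KH domain protein gene of blastomere fate, with 5.64, 20.2 and 9.70 CPM in SART-3 IP, against 39.2, 26.8 and 16.8 CPM in SART-3 input, and a log2 value of −1.03 (SE 0.432; adjusted p = 0.0996, edgeR).

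The ratios of both proteins were then set side by side. Of the 24 members, 18 had the same sign for LIN41 and for SART-3, with 14 negative in both and 4 positive in both, the last being cey-2, mei-1, orc-1 and spn-4. The eggshell gene cbd-1, whose signs differed, had 86.9, 74.1 and 106 CPM in LIN41 IP, against 118, 85.9 and 77.2 CPM in LIN41 input, and 67.6, 75.7 and 94.6 CPM in SART-3 IP, against 73.9, 78.4 and 80.4 CPM in SART-3 input. Its log2 values were −0.09 (SE 0.221) for LIN41 and 0.04 (SE 0.209) for SART-3, and the IP and input values overlapped in both strains. rme-2 had 22.9, 54.9 and 47.2 CPM in LIN41 IP, against 69.1, 48.0 and 49.2 CPM in LIN41 input, and 53.5, 26.9 and 53.4 CPM in SART-3 IP, against 61.3, 37.2 and 45.5 CPM in SART-3 input. Its log2 values were −0.29 (SE 0.305) for LIN41 and −0.14 (SE 0.280) for SART-3.

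**Figure D4:**
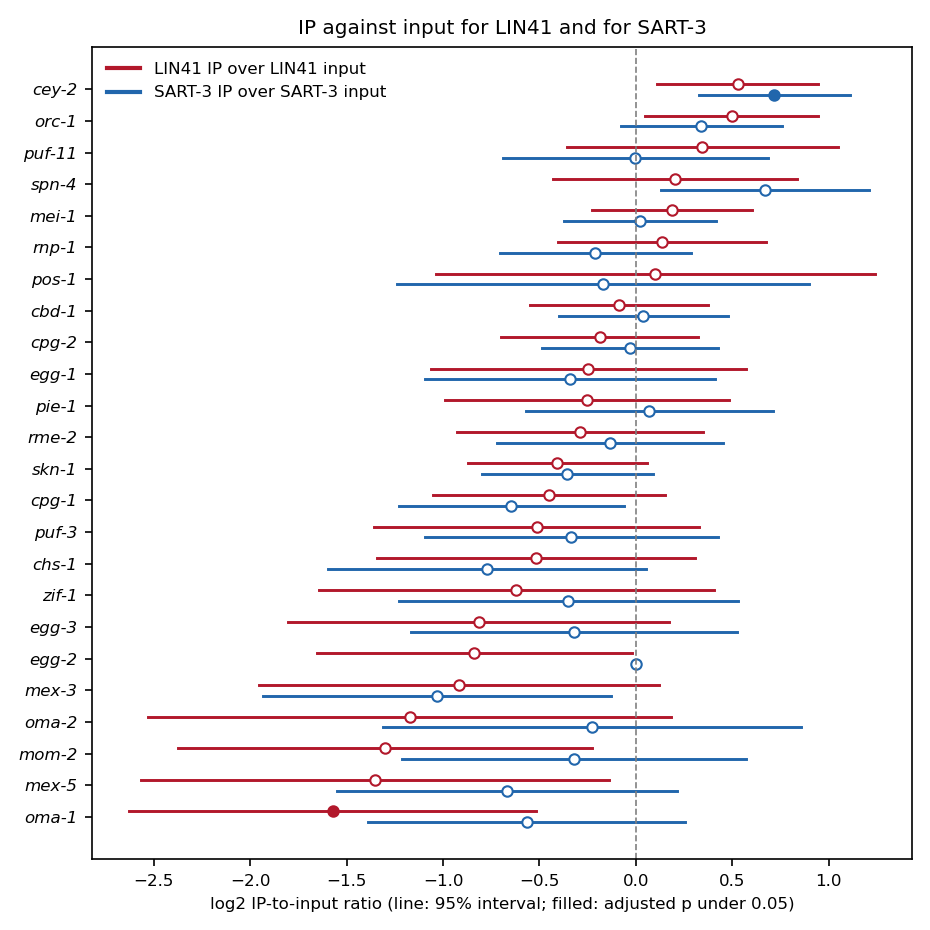
Circles are log2 IP-to-input ratios, lines their 95% intervals and filled circles those with an adjusted p under 0.05, for LIN41 in red and SART-3 in blue. oma-1 at −1.57 for LIN41 and cey-2 at 0.72 for SART-3 are the 2 filled circles, and the intervals of the 2 proteins overlap wherever both are drawn (none is drawn for egg-2 in SART-3, whose value was 1.2e-04).

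Of 45 other genes of the same pathways, 41 were tested in these comparisons. Among them, 1 was higher and 5 lower in LIN41 IP, and 1 was higher and 7 lower in SART-3 IP, by edgeR's quasi-likelihood test with Benjamini-Hochberg adjustment, against 8.87% and 5.33% of all genes for LIN41 and 10.5% and 7.79% for SART-3. cey-4, a Y-box gene like cey-2, was higher in both, with log2 values of 1.26 (SE 0.308) for LIN41 and 1.07 (SE 0.303) for SART-3. It is 885 bases long, and the limit given for cey-2 holds for it too. gld-1, a KH domain translational repressor of the germ line, was lower in LIN41 IP (−1.92, SE 0.421), and gld-2, the catalytic subunit of a cytoplasmic poly(A) polymerase, was lower in SART-3 IP (−1.91, SE 0.606). nos-3, a Nanos family gene, was lower in both (−1.03, SE 0.325 for LIN41 and −1.03, SE 0.278 for SART-3), as was egg-6 (−1.002, SE 0.311 for LIN41 and −0.85, SE 0.271 for SART-3).

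The inputs of the 2 strains were compared to ask whether the members differed before the IP. None of the 24 members differed between LIN41 input and SART-3 input by edgeR's quasi-likelihood test with Benjamini-Hochberg adjustment, the likelihood ratio test or DESeq2, and 0 had an unadjusted p under 0.05, where 1.32% of all genes were higher and 0.0914% lower. All 24 log2 values were within 0.5 of 0, 19 positive and 5 negative, with a median of 0.14, against 0.01 over all genes. The highest was mom-2 with 0.41 (SE 0.318), from 15.1, 25.7 and 28.0 CPM in LIN41 input, against 15.5, 18.9 and 16.2 CPM in SART-3 input, and the lowest was mex-5 with −0.29 (SE 0.331), from 25.5, 15.6 and 19.3 CPM in LIN41 input, against 19.2, 23.5 and 37.4 CPM in SART-3 input. Without all libraries of replicate 1, mex-5 and cdc-25.3 were called lower. There cdc-25.3 had an unadjusted p of 0.0108 and an adjusted p of 0.0465 (edgeR's quasi-likelihood test with Benjamini-Hochberg adjustment). So small a gap means that this alternative called a larger share of all genes than the fit reported. The 2 calls are thus not read as particular to the members. The 7 tested eggshell genes were all positive, with a median of 0.24 and 0 called. In the same comparison all 12 tested sperm genes were positive, with a median of 0.85 and 2 called higher, and their part in the values of the members was not tested.

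The inputs of the 2 strains also overlapped in genes of the oocyte surface and of germline fate. egg-1 and egg-2, whose proteins sit in the oocyte membrane and are needed for fertilisation, ranged from 19.3 to 27.2 CPM and from 29 to 39.3 CPM in LIN41 input, against 21.2 to 22.9 CPM and 24.8 to 29.3 CPM in SART-3 input. egg-3, a regulator of egg activation, ranged from 23.2 to 24.5 CPM in LIN41 input, against 18.3 to 23.6 CPM in SART-3 input. pie-1, which keeps transcription off in germline blastomeres, ranged from 22.9 to 39.6 CPM in LIN41 input, against 22.2 to 29.9 CPM in SART-3 input. puf-3, another Pumilio gene, overlapped as well, with 21.2 to 26.8 CPM in LIN41 input, against 16.8 to 26.6 CPM in SART-3 input. mex-1, a CCCH gene of blastomere fate, ranged from 7.81 to 11.2 CPM in LIN41 input, against 10.4 to 14.0 CPM in SART-3 input. mex-6, the close relative of mex-5, ranged from 4.46 to 12.9 CPM in LIN41 input, against 6.23 to 7.18 CPM in SART-3 input.

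Without regard to the inputs, LIN41 IP and SART-3 IP also gave 0 of 24 members called by edgeR's quasi-likelihood test, the likelihood ratio test or DESeq2, with 0 at an unadjusted p under 0.05, where 0.191% of all genes were higher and 0.0249% lower. The median was 0.01, the lowest value that of mex-5 (−0.98, SE 0.663), with 9.14, 8.23 and 8.34 CPM in LIN41 IP, against 2.82, 21.9 and 21.8 CPM in SART-3 IP, and the highest that of chs-1 (0.58, SE 0.495). chs-1 had 13.7, 27.4 and 30.6 CPM in LIN41 IP, against 11.3, 13.5 and 26.7 CPM in SART-3 IP. The groups overlapped.

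The members also differed by replicate. After this was seen, each replicate number was compared with the other 2 within the 6 inputs, with the strain as a term. A replicate number holds 1 input per strain. The p-values thus rest on how the strain difference varied over the numbers, and not on the spread between numbers. The fit tested 27 members. Of these, 7 were higher in replicate 1 and none lower, by edgeR's quasi-likelihood test with Benjamini-Hochberg adjustment, against 15.7% of all genes higher and 13.8% lower. In edgeR, 9 had an unadjusted p under 0.05, the others being spn-4 and cey-2, which had negative values. For spn-4 the value came from a high replicate 2. Its replicates 1 and 3 had 29.4 and 30.9 CPM in LIN41 input, and 31.0 and 28.0 CPM in SART-3 input. DESeq2 called 0. The median of the 27 log2 values was 0.25, against 0.01 over all genes.

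The 7 mRNAs came from all roles but meiosis and cell cycle. meg-3 was highest with a log2 value of 1.59 (SE 0.329; adjusted p = 0.0143), from 21.2 CPM in LIN41 input 1 and 17 CPM in SART-3 input 1, against 5.58 to 7.18 CPM in the other inputs. puf-5 had 1.26 (SE 0.389; adjusted p = 0.0444), mex-3 had 1.10 (SE 0.238; adjusted p = 0.0159) and zif-1, which encodes a substrate adapter for the degradation of CCCH proteins in the embryo, had 0.89 (SE 0.278; adjusted p = 0.0456), all from edgeR with Benjamini-Hochberg adjustment. Each of these lay higher in both inputs of replicate 1 than in the other 4 inputs.

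The others were of the eggshell and of yolk uptake. cpg-2 had 92.8 CPM in LIN41 input 1 and 87.9 CPM in SART-3 input 1, against 46.9 to 55.0 CPM in the other inputs, and a log2 value of 0.86 (SE 0.154; adjusted p = 0.0101, edgeR's quasi-likelihood test with Benjamini-Hochberg adjustment). chs-1 had 0.70 (SE 0.214; adjusted p = 0.0434) and rme-2 had 0.58 (SE 0.164; adjusted p = 0.035). All 7 tested eggshell genes were positive, with a median of 0.29. In the other genes of these pathways, 8 of 41 were higher and 2 lower, among them the polarity kinase gene pkc-3 (1.23, SE 0.300), the polarity gene par-3 (1.57, SE 0.197) and cpg-3, a further proteoglycan gene (0.96, SE 0.263).

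Of the 12 members that could be tested in the 6 IP libraries, none of cpg-2, cpg-1, cbd-1 and rme-2 passed, rme-2 had a value of −0.10, and orc-1 (−0.82, SE 0.256), puf-11 (−1.39, SE 0.433) and spn-4 (−1.24, SE 0.381) were lower in replicate 1 by edgeR's quasi-likelihood test with Benjamini-Hochberg adjustment, where 4.96% of all genes were lower. For spn-4, the value came from its high level in replicate 2, and replicate 1 was near replicate 3. It had 32.0, 109.7 and 22.2 CPM in LIN41 IP for replicates 1, 2 and 3. In SART-3 IP it had 25.4, 177 and 34.0 CPM. IP and input of a number share a lysate. In the same inputs, 8 of 14 tested sperm genes were lower in replicate 1, and lim-7, a marker of the gonadal sheath, was higher (1.44, SE 0.275) while inx-9, another sheath gene, was lower (−1.14, SE 0.310). The part of these in the values of the members was not tested. The count of 7 fell to 0 without LIN41 input replicate 2, to 3 without LIN41 input replicate 3 and to 4 without SART-3 input replicate 2. It rose without SART-3 input replicate 1, which leaves 1 input in replicate 1. Calls over all genes in these settings are not given here, so the counts are not read as a result about the members.

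spn-4 (WBGene00004984), which encodes an embryonic protein with an RNA recognition motif, set replicate 2 apart in all 4 groups. Its levels in replicates 1, 2 and 3 were 32.0, 109.7 and 22.2 CPM in LIN41 IP, 29.4, 70.3 and 30.9 CPM in LIN41 input, 25.4, 177 and 34.0 CPM in SART-3 IP, and 31.0, 79.7 and 28.0 CPM in SART-3 input. The 4 libraries of replicate 2 were the 4 highest, and the other 8 lay between 22.2 and 34.0 CPM. Counts in replicate 2 were 40, 63, 105 and 122 in LIN41 IP, LIN41 input, SART-3 IP and SART-3 input.

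In the inputs, the log2 value of spn-4 in replicate 2 against the others was 1.34 (SE 0.182; unadjusted p = 8.4e-05; adjusted p = 0.215, edgeR's quasi-likelihood test with Benjamini-Hochberg adjustment). None of the 27 members passed, where 0% of all genes were higher and 0% lower, with 3 members at an unadjusted p under 0.05. The likelihood ratio test called 1, spn-4, and DESeq2 called 0. In the 6 IP libraries, which share their lysates with the inputs, spn-4 was higher in replicate 2 with a log2 value of 2.39 (SE 0.269; adjusted p = 3.7e-05, edgeR's quasi-likelihood test with Benjamini-Hochberg adjustment), 1 of 12 members tested, where 0.193% of 8281 genes were higher. The IP-to-input ratio of spn-4 was 0.20 (SE 0.303) for LIN41 and 0.67 (SE 0.257; adjusted p = 0.074, edgeR) for SART-3. Its LIN41-specific enrichment was −0.47 (SE 0.390), and over the alternatives it ranged from −0.73 to 0.22, the one positive value being that without SART-3 IP replicate 2.

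Another 3 members, chosen after their values were seen, were also high in libraries of replicate 2. cdc-25.3, a CDC25 phosphatase family gene below the limit for a measured mRNA, had 21.9 and 2.23 CPM in LIN41 IP 2 and LIN41 input 2, and 21.9 and 11.1 CPM in SART-3 IP 2 and SART-3 input 2, against at most 0.623 CPM in the other 8 libraries. meg-1 had 0 and 2.23 CPM in LIN41 IP 2 and LIN41 input 2, and 11.8 and 7.84 CPM in SART-3 IP 2 and SART-3 input 2, against at most 0.739 CPM elsewhere, and it was at 0 in every LIN41 IP library. orc-1 had 151 and 116 CPM in LIN41 IP 2 and LIN41 input 2, and 214 and 130.0 CPM in SART-3 IP 2 and SART-3 input 2. Replicate 2 was the highest in each of the 4 groups for orc-1, which had a log2 value in the inputs of 0.53 (SE 0.136; adjusted p = 0.389, edgeR's quasi-likelihood test with Benjamini-Hochberg adjustment). Values of oma-1 and mex-3 in the same comparison were −0.10 (SE 0.259) and −0.14 (SE 0.264).

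Of 12 genes that the embryo itself switches on early, listed after the pattern was seen, only elt-7 passed the limit for a measured mRNA. Over 12 such genes the sum was 30.2 and 32.4 CPM in LIN41 IP 2 and LIN41 input 2, and 42.1 and 40.5 CPM in SART-3 IP 2 and SART-3 input 2, against 22.9 to 78.9 CPM in the other libraries. Between 6 and 8 of the 12 were at 0 in the libraries of replicate 2, and elt-7, which larval intestine also expresses, made up most of the sum. pes-10 had 1 count in SART-3 input 2 and none elsewhere. The part of embryos in the pattern was not tested.

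**Figure D5:**
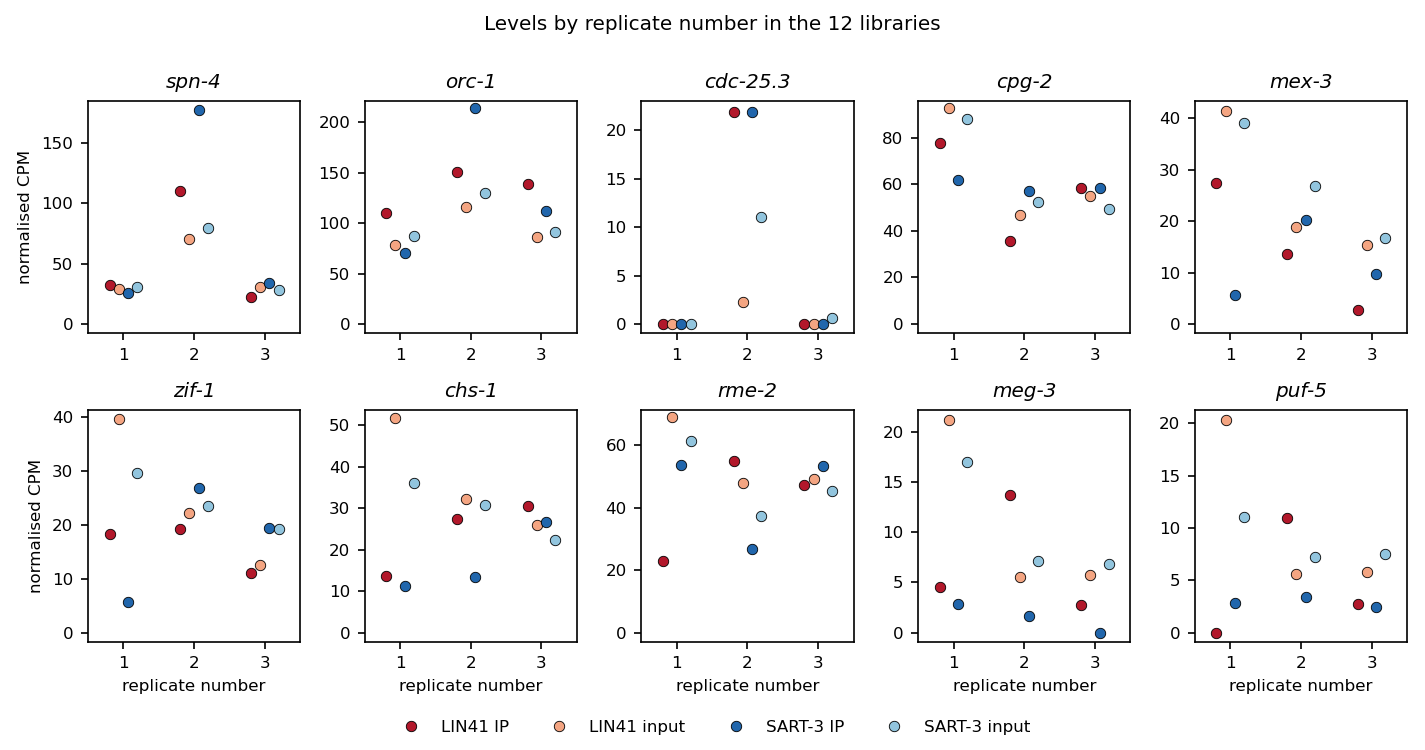
Points are normalised CPM in the 12 libraries by replicate number, with a colour for each group and a y axis for each mRNA. spn-4 and cdc-25.3 are highest in the 4 libraries of replicate 2, at 70.3 to 177 CPM and 2.23 to 21.9 CPM, and cpg-2, mex-3, zif-1, chs-1, rme-2, meg-3 and puf-5 are higher in the inputs of replicate 1 than in the inputs of replicates 2 and 3.

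For replicate 3, none of the 27 members passed edgeR's quasi-likelihood test with Benjamini-Hochberg adjustment, where 4.51% of all genes were higher and 1.38% lower. In edgeR, 5 had an unadjusted p under 0.05, all with negative values (mex-3, zif-1, spn-4, chs-1 and cpg-2), the likelihood ratio test called mex-3 and spn-4 lower, and DESeq2 called 0. The median was −0.20, against −0.03 over all genes, and 21 of 27 values were negative. The value of spn-4 again came from its high level in replicate 2. In the same inputs, 8 of 14 sperm genes were higher in replicate 3 and none lower, with a median of 1.17, and their part in the values of the members was not tested.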

How the data were processed

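The authors kept a single read per 5′ position, mapped reads with QuasR, and deposited raw counts of reads over the annotated exons of each gene (WormBase WS190), with the length of each gene model. The methods name the ce6 assembly and the labels ce10, so no coordinates are given. Of the member lengths, 32 of 33 are multiples of 3, so they are nearly all coding lengths. Symbols came from the WBcel235 annotation (18778 of 20182 IDs matched, 93.0%).

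All 12 libraries were mapped to groups from their titles. The fit used edgeR 4.0.16 in R 4.3.3: filterByExpr by group (12036 genes), TMM factors, and 1 quasi-likelihood model with replicate number (for the batch term of the methods), library type, protein and their interaction. The biological coefficient of variation was 0.167. Tests were two-sided, at a Benjamini-Hochberg adjusted p under 0.05 over all genes tested. Standard errors are the absolute log2 value over the square root of F, and none is given under an absolute log2 value of 0.001. Values per replicate use log2 CPM with a prior count of 2. Comparisons between replicates were chosen after seeing the data. The alternatives were the likelihood ratio test, DESeq2 1.42.0, other normalisations and filters, no replicate block, a block per lysate, and leaving out each replicate and library. The test of LIN41 input against SART-3 input was checked on simulated counts. These had a common dispersion and the same gene means in all libraries, apart from genes changed in LIN41 input. The other comparisons were not checked in this way.

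The members, lists and named genes were chosen with earlier results of these data known. Values in every library of the groups compared are given for members called in any of the 5 comparisons of groups, for oma-1, oma-2, spn-4, rme-2 and cbd-1, and for the highest and lowest member of each comparison. Of the other pathway genes, those named with values were among the called genes with the largest absolute log2 values of their own list (at most 4 a list).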

Additional observations from a re-analysis of the deposited data

How the results depend on the processing

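LIN41-specific enrichment and LIN41 IP against SART-3 IP called 0 members under every alternative run, by edgeR or DESeq2. LIN41 IP against LIN41 input called 1 member in the fit reported, 0 with DESeq2, 3 with total counts only (mom-2, oma-1 and skn-1, all lower), 2 with no filter on low counts (mex-5 and oma-1), and 0 to 2 when a replicate or a library was left out. SART-3 IP against SART-3 input called 1 in the fit reported, 2 with the likelihood ratio test, 2 with the lysate as the block, 3 with total counts only, 3 with no filter (cey-2, meg-3 and mex-3), 2 with at least 10 counts in 3 libraries (cey-2 and meg-3), and 0 to 3 when a replicate or a library was left out. Without the replicate block, LIN41 IP against LIN41 input and SART-3 IP against SART-3 input each called 0, the other 3 comparisons stayed at 0 members, and calls over all genes were 497 higher and 114 lower in LIN41 IP, against 1067 and 641 with the replicate block, and 521 and 163 in SART-3 IP, against 1262 and 938. LIN41-specific enrichment and the inputs called 0 genes without it, against 5 and, in the inputs, 159 higher and 11 lower with it. Whether numbers paired the samples was checked with 9579 genes: deviations from group means correlated above 0.1 in 17 of 18 pairs (Pearson r across genes from 0.01 to 0.72). LIN41 input against SART-3 input called 0 to 2 with a replicate or library left out. With total counts only, cey-2 in SART-3 IP no longer passed, with a log2 value of 0.42.

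In the inputs, replicate 1 against the others called 7 members in the fit reported, 0 with DESeq2, 3 with total counts only, 0 to 14 with a library left out, and 3, all lower, in the IP libraries, where rme-2 reversed to −0.10. Replicate 2 called 1 (spn-4) with the likelihood ratio test, with no filter and in the IP libraries, and 0 to 4 with a library left out. Replicate 3 called 2 with the likelihood ratio test and 0 to 8 with a library left out. The cause of these changes was not tested. Calls over all genes with a replicate or library left out are not given here. Member counts in those fits thus stand without a background. The IP libraries, with a median of 8.5 and 13 counts per tested member, limit what can be seen: oma-1 rests on 0, 2 and 7 counts in LIN41 IP. The widths of the intervals take in the spread of replicates as well as low counts. The size of difference that could be detected was not tested.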
